A study of Caenorhabditis elegans with 4 samples.

Results

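In fed first-stage (L1) larvae of Caenorhabditis elegans, 294 replicate 1 peaks of AHA-1 binding held their list's highest score and overlapped a replicate 2 peak, but met no region of the authors' combined list. They were chosen by measured values, as the replicate 1 peaks on chromosomes II, III, IV, V and X that held the highest score of that list and overlapped a replicate 2 peak by at least 1 bp. There were 683 such reproduced top-score peaks. Of these, 294 (43.0%, exact 95% binomial interval 39.3 to 46.9) overlapped no combined region and 389 overlapped 1 or more. The whole replicate 1 list held 23943 peaks, the replicate 2 list 20827 and the combined list 474 regions. Membership was selected on the replicate 1 score and on both overlaps, so these counts are a description.

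AHA-1 is a transcription factor of the basic helix-loop-helix PAS family and the worm counterpart of mammalian ARNT. It binds DNA as a dimer with partner proteins of the same family, among them HIF-1, which acts in the response to low oxygen, and AHR-1, the homologue of the aryl hydrocarbon receptor. In chromatin immunoprecipitation with sequencing (ChIP-seq), DNA crosslinked to the factor is pulled down with an antibody and sequenced, and places where its reads pile up are called as peaks.

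The series held 2 anti-GFP ChIP libraries and 2 input libraries from strain OP124, numbered 1 and 2 in each group. The worms were hermaphrodites that carried the unc-119(ed3) mutation and the transgene wgIs124. The transgene holds aha-1 with TY1, EGFP and FLAG tags and an unc-119 copy. The strain was outcrossed 3 times and grown at 20 °C on E. coli HB101, and its genotype lists no change at the native aha-1 gene. The AHA-1 measured was therefore the tagged protein of a bombarded transgene, and whole larvae were used, so a peak cannot be placed in a cell type. The input libraries were not analysed here. Nothing in the labels says that the ChIP replicates came from separate cultures, so the spread between them may be technical.

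The replicate lists and the combined list came from different peak callers, SPP run through the IDR procedure and PeakSeq, per the file headers. The score of a replicate peak is the authors' own and its scale is not stated. Its highest value, 3.39, was shared by 1238 replicate 1 peaks, 1002 of them on the 5 chromosomes. The 3 peaks just below it on these chromosomes scored 2.94. In replicate 2 the highest value was 3.01, shared by 512 peaks. No read counts come with the lists, so the sequencing depth under each peak is unknown. The intervals given here cover the counting of peaks only and treat neighbouring peaks as independent.

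Reproduction in replicate 2 was frequent at the highest score. Of the 1002 top-score peaks, 683 (68.2%) overlapped a replicate 2 peak, against 24.6% of all 20234 replicate 1 peaks on the 5 chromosomes. A combined region was rare over the whole list, with 2.68% of all replicate 1 peaks overlapping at least 1. The lack of a combined region was therefore the usual state of a reproduced peak: 90.0% of all reproduced replicate 1 peaks had none, as did 97.5% of those below the highest score. Among the peaks with the next 1000 numbers after the tied scores, 34.2% were reproduced, and 88.4% of the reproduced ones had no combined region. The 43.0% at the highest score was below these background shares, and since the rule used these overlaps no test was made.

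Started from replicate 2, where 512 peaks shared the highest score against 1238 in replicate 1, the same rule gave a smaller set. The sets therefore reach unlike depths of their lists, and their shares are not like for like. Of 353 top-score replicate 2 peaks that overlapped a replicate 1 peak, 99 (28.0%) had no combined region. Without any requirement on the other replicate, the number was 582 of 1002 for replicate 1 and 157 of 413 for replicate 2.

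The peaks without a combined region had high numbers in the authors' numbering. Each peak carries a number in its name, and the numbers 1 to 1238 are those of the tied replicate 1 scores. What orders the numbers within the ties is not stated. The 294 peaks had a median number of 818.5 (interquartile range 591.5 to 1046, lowest 153), and the 389 with a combined region had a median of 280 (137 to 522, lowest 1). Both sets covered most of the range, since the highest numbers were 1238 and 1201, but no reproduced peak without a region had a number below 153.

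The share without a region rose along the numbering. It was 1.40% among the 143 reproduced peaks numbered 1 to 200 (2 peaks, interval 0.170 to 4.96) and 15.2% among the 132 numbered 201 to 400 (9.51 to 22.4). Around the middle of the numbering the sets were of nearly equal size, with 45.5% of 123 peaks lacking a region at 401 to 600 (36.5 to 54.8). The shares then went to 67.4% of 92, 74.2% of 89 and 83.0% of 88 in the following bands of 200, and to 93.8% of the 16 peaks numbered 1201 to 1238 (69.8 to 99.8). The share of top-score peaks reproduced in replicate 2 moved the other way, from 92.9% in the first band to 53.0% at 1001 to 1200. The numbers come from the same list as the score, so these shares are a description.

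**Figure D1:**
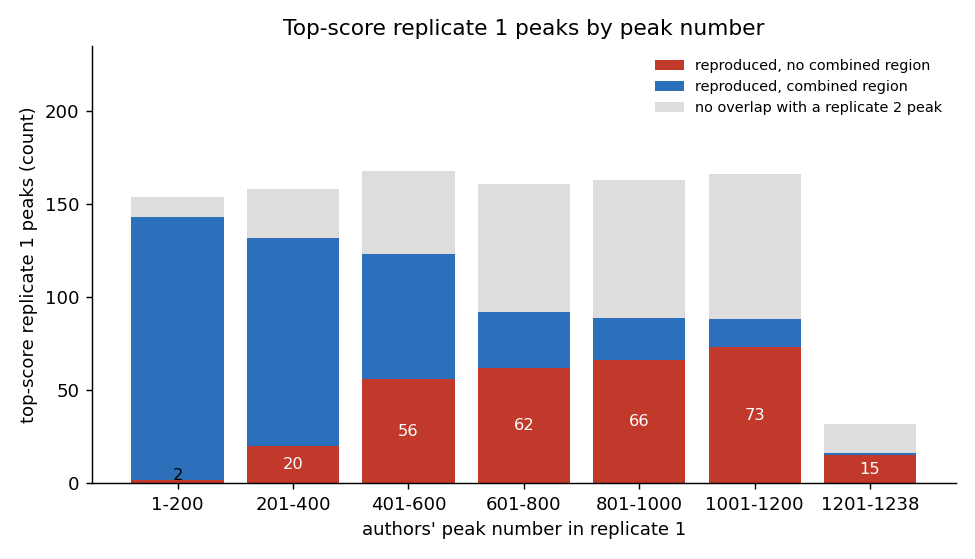
Top-score replicate 1 peaks on 5 chromosomes, counted (y axis) in bands of 200 of the authors' peak numbers (x axis), with the last band shorter. Red marks reproduced peaks without a combined region, which grow from 2 in the first band to 73 at 1001 to 1200, blue those with a region, and grey the peaks with no replicate 2 overlap.

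In replicate 2 the same places had scores over the whole range, mostly above that list's median and below its highest value. The nearest replicate 2 peak, called the partner here, had a median score of 1.39 under the 294 peaks (interquartile range 0.664 to 2.30) and of 3.01, the highest value, under the 389. The median of all reproduced replicate 1 peaks was 0.771, and that of all replicate 2 peaks on the 5 chromosomes was 0.633, with an upper quartile of 1.18. Places without a combined region thus lay between the places with a region and the list as a whole. A partner at or below the replicate 2 median was found for 72 of the 294 (24.5%) and for 23 of the 389 (5.91%). Over all reproduced replicate 1 peaks the lower quartile of partner scores, 0.403, was itself below that median of 0.633. Such low partners were thus not particular to the 294.

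A top-score partner was the exception without a region and the rule with one. It was present under 33 of the 294 (11.2%, interval 7.85 to 15.4) and under 230 of the 389 (59.1%, 54.1 to 64.1), against 7.89% of all reproduced replicate 1 peaks. Read the other way, 33 of the 263 peaks with the highest score in both replicates lacked a combined region (12.5%, 8.80 to 17.2), and 261 of the 420 whose partner scored lower did (62.1%, 57.3 to 66.8). The combined list is named as that of the series and was taken to rest on the same ChIP libraries, although how they were pooled is not stated. The replicate 2 score was therefore not treated as independent of the rule and was not tested.

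The gap in partner score was also present between peaks of similar number. At 401 to 600, 7 of 56 peaks without a region (12.5%) and 30 of 67 with a region (44.8%) had a top-score partner. At 801 to 1000 the counts were 6 of 66 (9.09%) and 12 of 23 (52.2%), and at 1001 to 1200 they were 8 of 73 (11.0%) and 7 of 15 (46.7%). Across the bands from 201 to 1200, the share of peaks without a region that had a top-score partner stayed between 9.09% and 12.9%. Within the 294 peaks the number and the partner score were weakly related, with a Spearman's rho of -0.13 and a Pearson's r of -0.13 across peaks, which share both libraries. Across the 389 rho was -0.28 and r was -0.20.

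**Figure D2:**
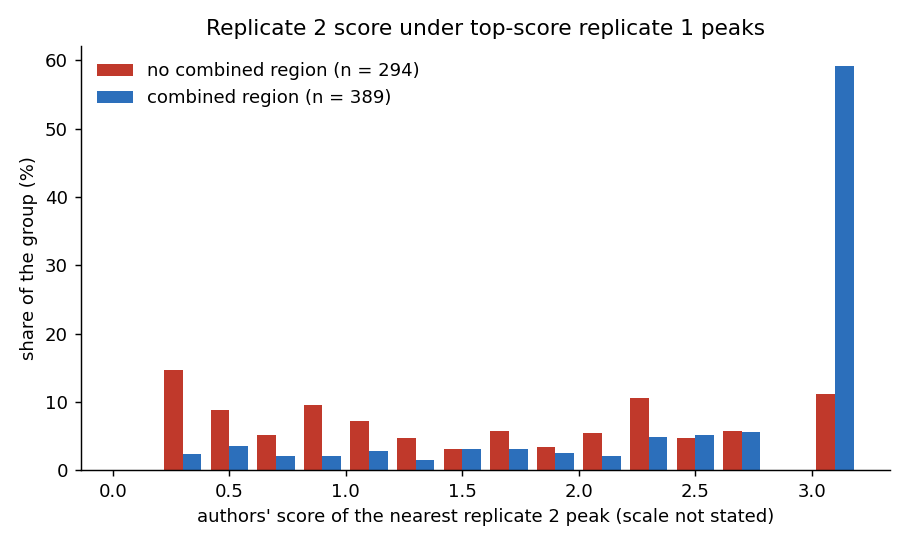
Share of each group (y axis, %) by the authors' score of the nearest replicate 2 peak (x axis, scale not stated, bins of width 0.2). Red bars are the 294 peaks without a combined region, spread over the whole range with 11.2% at the highest score, and blue bars the 389 with a region, of which 59.1% have the highest score.

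The replicate midpoints lay farther apart where there was no combined region. Replicate 1 peaks were nearly all 410 bp wide and replicate 2 peaks 484 bp, so overlapping peaks can have midpoints up to 446 bp apart. All 294 peaks had the width of 410 bp, whereas 17 narrower peaks were among the 389, of which 372 had that width. The median distance to the partner's midpoint was 89.5 bp for the 294 (interquartile range 35 to 210.5), 34 bp for the 389 (14 to 71) and 156 bp for all reproduced replicate 1 peaks (61 to 291). A distance of at most 50 bp was found for 102 of the 294 (34.7%) and 256 of the 389 (65.8%), beside 21.7% of all reproduced peaks. At most 200 bp was found for 59.1% of all reproduced peaks, beside 73.5% of the 294 and 94.1% of the 389. Distances over 200 bp were found for 78 of the 294 (26.5%, 21.6 to 32.0) and 23 of the 389 (5.91%, 3.78 to 8.74). Among the 294, 3 of those 78 had a top-score partner, against 15 of 114 at 51 to 200 bp and 15 of 102 within 50 bp. Median partner scores of these offset classes were 1.05, 1.81 and 1.39, in the same order. Spearman's rho between offset and partner score across the 294 was -0.10. Among the 389, 9 of the 23 peaks with distances over 200 bp had a top-score partner (39.1%). Between peaks of similar number the gap in distance was mostly narrower. Median distances without and with a region were 46.5 and 36.5 bp at numbers 201 to 400, and 87.5 and 44 bp at 401 to 600. They were 121 and 44 bp at 601 to 800, 80.5 and 56 bp at 801 to 1000, and 98 and 68 bp at 1001 to 1200.

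Single places show the range of alignment. On chromosome III, the peak from 2090673 to 2091082 had the same midpoint as its partner, which scored 1.87. A distance of 1 bp was found for II from 1242507 to 1242916 (partner score 0.404), for X from 12480407 to 12480816 (2.77) and from 10524423 to 10524832 (1.73), and for IV from 10483669 to 10484078 (1.40). At the other end, II from 6898438 to 6898847 (partner score 2.18) met its partner by 18 bp, with midpoints 429 bp apart. The peaks on X from 9337699 to 9338108 (2.26) and on V from 13295899 to 13296308 (0.886) met theirs by 20 bp. The peaks that met their partners by 18 or 20 bp are the members nearest the edge of the overlap rule. Just outside it, the peak from 2578561 to 2578970 on chromosome III lay next to a replicate 2 peak without sharing a base. A near-perfect alignment thus came with low as well as high partner scores.

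**Figure D3:**
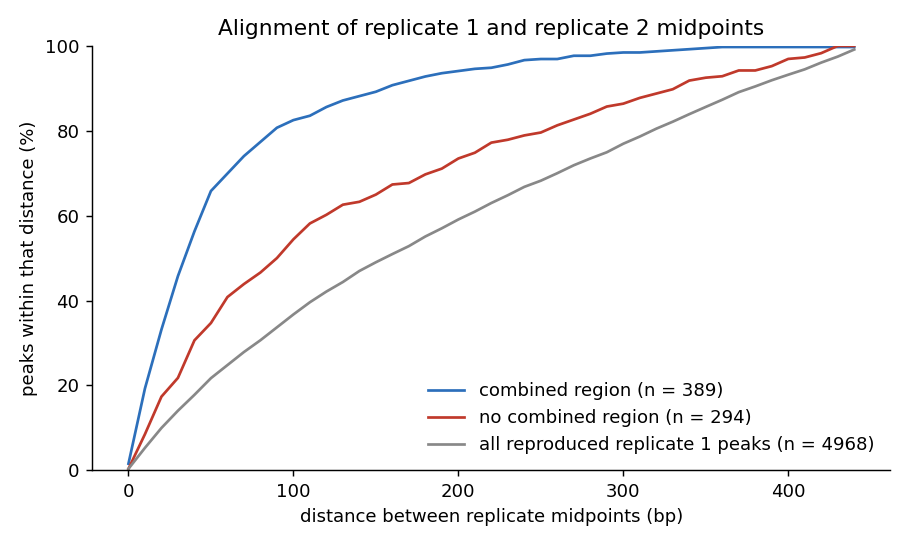
Cumulative share of peaks (y axis, %) by the distance between the midpoints of a replicate 1 peak and its nearest overlapping replicate 2 peak (x axis, bp). The red line of the 294 peaks without a combined region runs between the blue line of the 389 with a region and the grey line of all 4968 reproduced replicate 1 peaks, with 34.7%, 65.8% and 21.7% within 50 bp.

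The 10 members with the lowest peak numbers had partners of widely different scores. The lowest number, 153, belonged to III from 8904001 to 8904410, whose nearest of 3 replicate 2 partners scored 2.28. Next came IV from 8432700 to 8433109 (number 190, partner score 2.31) and III from 13462800 to 13463209 (248, 3.01). The following 7 were V from 7776096 to 7776505 (264, 1.40), II from 14044121 to 14044530 (274, 2.04), V from 14347187 to 14347596 (275, 0.210), X from 5429268 to 5429677 (287, 3.01), II from 9060313 to 9060722 (289, 2.71), IV from 13322424 to 13322833 (299, 2.30) and IV from 11602105 to 11602514 (300, 0.389). Of these 10 peaks, 8 had a partner score above 1.18, the upper quartile of replicate 2, and 2 had a top-score partner. The partner of the chromosome V peak numbered 275 was near the bottom of its list, as number 20783 of 20827, although the midpoints lay 31 bp apart.

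Among the members, the partner with the lowest replicate 2 number was on X. There, the peak from 5429268 to 5429677 was number 287 in replicate 1 and met number 74 in replicate 2, with midpoints 38 bp apart. No other replicate 1 peak lay within 5 kb, and the nearest combined region was 219565 bp away. Further top-score pairs, in the order of the replicate 2 numbers, were II from 6348369 to 6348778 (numbers 774 and 172), X from 16726762 to 16727171 (1091 and 173), II from 11452951 to 11453360 (1022 and 218) and X from 15606697 to 15607106 (867 and 227). They were followed by III from 13068287 to 13068696 (787 and 230), V from 6246474 to 6246883 (772 and 232) and IV from 11179138 to 11179547 (905 and 244). On X, the overlapping peaks from 10770797 to 10771206 and from 10770997 to 10771406 (546 and 1188) met the same replicate 2 peak, number 239.

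The peaks with the highest score in both replicates, 33 in all, had later numbers within the tied highest scores than such peaks with a combined region. Their median number was 787 in replicate 1 and 334 in replicate 2, and the 230 such peaks with a combined region had medians of 217.5 and 168. Their midpoints were a median of 54 bp apart, against 29 bp for the 230, and 15 of 33 were within 50 bp, against 171 of 230 (74.3%). Chromosome X held 9 of them, III 8, II 6 and IV and V 5 each, which is 8.93% (V) to 14.5% (X) of the 294 peaks by chromosome. With a region, the share of top-score partners ran from 44.3% on V to 69.8% on III, so on each of the 5 chromosomes it was higher than without.

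Most of the 294 peaks were far from any combined region. The median gap to the nearest was 53408 bp (interquartile range 18702 to 128060), and 38 of the 294 (12.9%) were within 5 kb of a region. Top-score peaks that had neither a replicate 2 overlap nor a combined region, 288 in number, had a median gap of 55498.5 bp (18703 to 121593), and 44 of them (15.3%) were within 5 kb. The gaps of reproduced and unreproduced peaks were thus of nearly the same size. The 33 peaks with the highest score in both replicates were nearer, with a median of 29232 bp (4465 to 56934) and 9 of 33 within 5 kb (27.3%, interval 13.3 to 45.5).

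A few members lay beside a combined region. The nearest, IV from 16491552 to 16491961, ended 303 bp before a region of q = 3.66e-04. On X, the peak from 6742764 to 6743173 started 316 bp after a broad region from 6740267 to 6742448 (q = 2.13e-13), and on III the peak from 9051899 to 9052308 started 363 bp after a region of q = 0.00319. For this peak on X and this peak on III, and for no other of the 294, the replicate 2 partner itself overlapped the combined region, with offsets of 386 and 404 bp. On V, the peaks from 6246474 to 6246883 and from 6226071 to 6226480 lay 358 and 537 bp from a region and had top-score partners. In all, 4 members were within 500 bp of a region and 10 within 1000 bp.

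The farthest members were on V and II. V from 20005774 to 20006183 was 476231 bp from a combined region, with a partner score of 2.56. V from 3315260 to 3315669 was 455849 bp away (partner score 0.857), V from 16355838 to 16356247 was 438781 bp away (0.212), II from 7708624 to 7709033 was 422263 bp away (0.249) and V from 16401490 to 16401899 was 393129 bp away (0.375). Of these 5, 3 had partner scores below the replicate 2 median of 0.633.

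**Figure D4:**
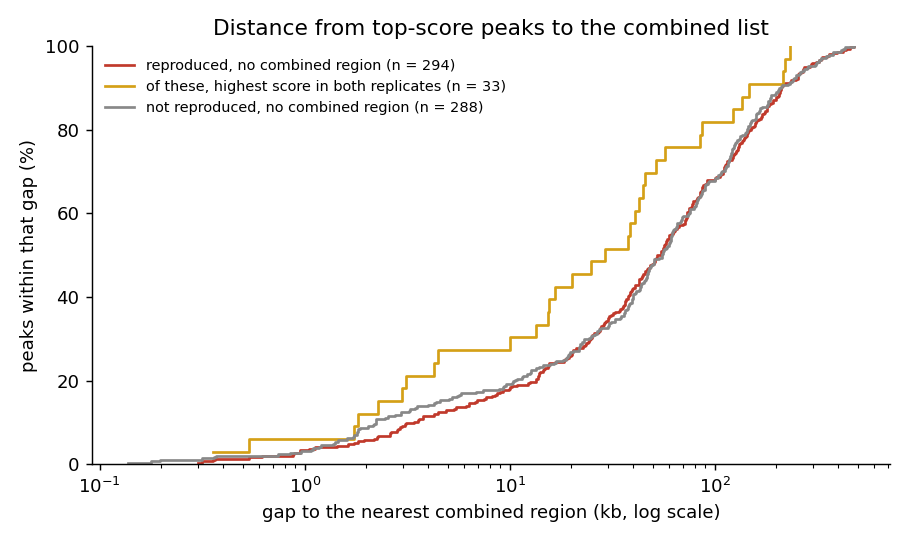
Cumulative share of peaks (y axis, %) by the gap to the nearest combined region (x axis, kb, log scale). The lines of the 294 reproduced (red) and the 288 unreproduced (grey) peaks without a region run together, with medians of 53408 and 55498.5 bp, and the line of the 33 peaks with the highest score in both replicates (yellow) lies at shorter gaps.

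Of the 389 peaks with a region, 128 (32.9%) met one at a q of at most 1e-05. The median of the lowest q-value per peak was 1.72e-04. Other peaks were closer to the edge of the combined list. Its q-values, as the authors deposited them, ended at 0.00999, and of the 389 peaks with a region 132 (33.9%) had none at or below 0.001. The weakest such regions had q = 0.00997 (peak number 1067 on II, from 11223866 to 11224275), 0.00995 (number 301 on III, from 9443375 to 9443784) and 0.00965 (number 101 on III, from 9765316 to 9765725). Their partner scores were 2.66, 2.65 and 1.86. The smallest overlap that made a peak count as having a region was 11 bp, on III from 4757276 to 4757685. A high peak number did not preclude an overlap with a region of very low q-value, but a q-value belongs to the whole region. The 5 peaks with a region and the highest numbers, 1137 to 1201, included V from 1432501 to 1432910 under a region of q = 2.09e-142, III from 10904918 to 10905327 (q = 8.21e-73) and II from 11761637 to 11762046 (q = 1.25e-14). The remaining ones were II from 6589054 to 6589463 (q = 3.07e-07) and V from 13380208 to 13380617 (q = 0.00637). The region of q = 2.09e-142 was 3536 bp wide and that of q = 8.21e-73 was 1597 bp wide. The median width of combined regions on the 5 chromosomes was 343.5 bp.

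By chromosome, the share without a combined region did not differ detectably. It was 45.9% of 135 reproduced top-score peaks on X (62 peaks), 44.4% of 135 on II (60) and of 126 on V (56), 43.4% of 152 on III (66) and 37.0% of 135 on IV (50). Two-sided Fisher's exact tests of each chromosome against the other 4 called 0 of 5 (0.0%) after Benjamini-Hochberg adjustment, and 0 at an unadjusted p below 0.05. The lowest p was that of chromosome IV, with an odds ratio of 0.733 (95% interval 0.486 to 1.10, exact p = 0.121, adjusted p = 0.607). The interval for X, with an odds ratio of 1.16, ran from 0.777 to 1.72 (exact p = 0.497, adjusted p = 0.926), so differences of these sizes cannot be told from an even share with this number of peaks. Median partner scores were 1.91 on X, 1.67 on III, 1.13 on V and II and 1.09 on IV, and their 95% intervals, for example 1.30 to 2.29 on X and 0.765 to 1.80 on IV, all overlapped.

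Along the chromosomes, the middle of 3 equal parts held 107 of the 294 (36.4%) and 146 of the 389 (37.5%). The odds ratio was 0.952, with bounds of 0.687 and 1.32 at 95% confidence, and Fisher's exact test gave a two-sided p of 0.810. The outer parts were filled less evenly. The left part held 24.1% of the 294 (interval 19.4 to 29.5) and 32.1% of the 389 (27.5 to 37.0), and the right part 39.5% (33.8 to 45.3) and 30.3% (25.8 to 35.2). For the right part the gap was widest on X, with 30 of 62 peaks without a region (48.4%, 35.5 to 61.4) and 19 of 73 with a region (26.0%, 16.5 to 37.6). The middle part of X held 13 of the 62 (21.0%, 11.7 to 33.2) and 28 of the 73 (38.4%, 27.2 to 50.5), unlike the even middle over the 5 chromosomes together. For the left part the gap was wider on IV (34.0% and 45.9%) and III (19.7% and 30.2%) than on X (30.6% and 35.6%). On II the right-part shares were 48.3% and 49.3%. The left and right parts, and the parts of single chromosomes, were compared after their values were seen and were not tested.

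**Figure D5:**
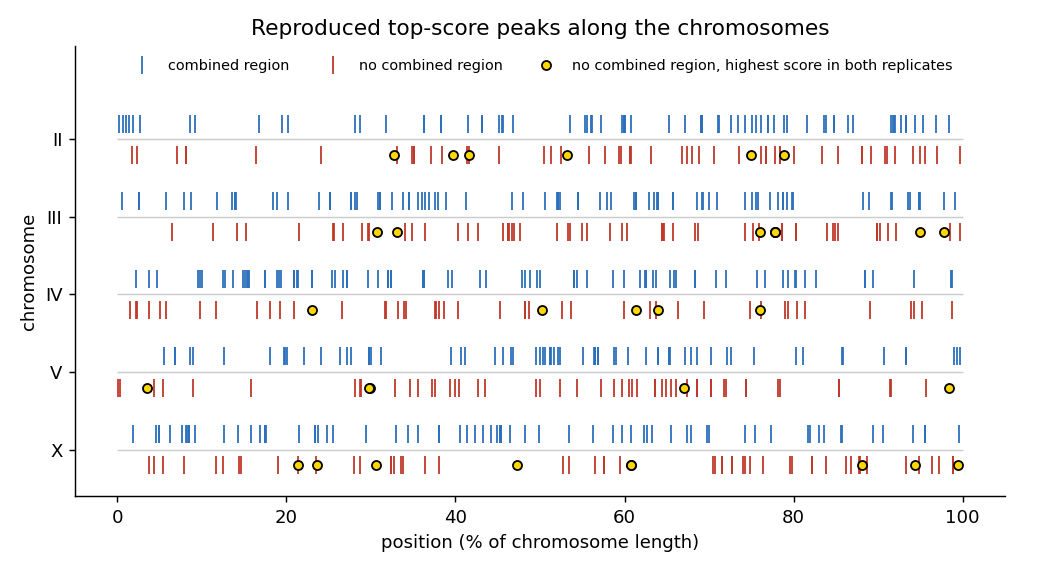
Reproduced top-score peaks on 5 chromosomes (y axis) by position as a percentage of chromosome length (x axis). Blue ticks above each line are the 389 peaks with a combined region, red ticks below it the 294 without, and yellow circles the 33 of these with the highest score in both replicates. Both sets run along whole chromosomes, with 30 of 62 red marks on X in the right of 3 equal parts.

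The surroundings of the peaks were alike in the number of other replicate 1 peaks of any score, but another top-score peak was less frequent nearby without a region. Another replicate 1 peak lay within 5 kb, midpoint to midpoint, of 278 of the 294 (94.6%) and of 366 of the 389 (94.1%), and of 90.8% of all replicate 1 peaks. The median number of such neighbours was 3 in both sets. Another top-score peak lay within 5 kb of 80 of the 294 (27.2%, interval 22.2 to 32.7) and of 153 of the 389 (39.3%, 34.4 to 44.4). The share over all replicate 1 peaks was not computed for top-score neighbours. Top-score peaks under the same wide combined region count here as neighbours of each other, so these counts are a description.

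Of the 294 peaks, 44 (15.0%, interval 11.1 to 19.6) lay within 5 kb of another of them. Of the 389, 33 (8.48%, 5.91 to 11.7) lay within 5 kb of one of the 294. The 44 peaks formed 21 groups, 19 of which were pairs. The groups of 3 were on II from 11722142 to 11728784 (numbers 633, 825 and 976) and on III from 6359260 to 6362496 (631, 1223 and 1224), and none of their partners had the highest score. In 2 pairs both peaks had a top-score partner, on III from 10717479 to 10720392 and on X from 10770797 to 10771406. The X pair was 1 of 7 pairs whose peaks overlapped each other. Within each of these 7 pairs both peaks had the same nearest partner, so the 294 peaks had 287 distinct partners and are not 294 separate places. A single replicate 2 peak was met by 242 of the 294, 2 peaks by 50 and 3 peaks by 2.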

How the data were processed

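Peak lists of 2 ChIP libraries and 1 combined list were used, all on WormBase WS220 per the file headers, with 1-based positions. The authors deposited a score for each replicate peak (source SPP via IDR) and a q-value for each combined region (source PeakSeq). The aligner, software versions and pooling are not stated in the sources used here. Overlap meant at least 1 bp, and the partner was the overlapping replicate 2 peak with the nearest midpoint. Chromosome length was taken as the highest end of any peak. Shares carry exact (Clopper-Pearson) 95% intervals, and medians carry binomial order-statistic intervals. Fisher's exact tests were two-sided, adjusted by Benjamini-Hochberg over 5 chromosomes. The code, in Python 3.11.15 with scipy 1.17.1 and pandas 2.3.3, was tested on simulated lists. Members were chosen with earlier results of these data known. Members are named by position by a fixed rule: lowest numbers, strongest partners, nearest to and farthest from a combined region, extreme offsets, and groups. Alternative overlap, q-value, width and replicate settings were tried. Motifs and genes were not examined, because the reference table is of another assembly (WBcel235).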

Additional observations from a re-analysis of the deposited data

Results flagged for a closer look

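Peaks outside the 5 chromosomes, which entered no comparison, met the same criteria. Of the 474 combined regions, 450 were on the 5 chromosomes. Why few regions lay elsewhere was not tested. On chromosome I, 113 of 132 reproduced top-score replicate 1 peaks had no combined region (85.6%, exact 95% interval 78.4 to 91.1), and 34 of the 113 (30.1%) had a top-score partner. On mitochondrial DNA all 23 of 23 had none, which allows a share from 85.2% upward, and 19 of them had a top-score partner. Over the 5 other chromosomes 90.0% of all reproduced replicate 1 peaks, and 43.0% of those at the highest score, had none. The score and overlaps chose these peaks too, so the shares are a description, and the input libraries, the controls of this design, were not analysed here. The lowest numbers of reproduced top-score peaks without a region were 83 on chromosome I and 2 on mitochondrial DNA, beside 153 on the other chromosomes.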

How the results depend on the processing

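The number of peaks without a combined region was 216 under a reciprocal overlap rule of 50% or midpoints within 200 bp, 290 with a 500 bp margin, 426 with combined regions at q of at most 0.001 and 308 with those under 1500 bp. It was 33 with a top-score partner, 99 from replicate 2, and 157 to 582 when no overlap with the other replicate was required. The combined list stayed the same, so no replicate was removed from it. With q of at most 0.001, top-score partners were under 19.2% without and 70.4% with a region (100% each when required), median numbers were 696.5 and 203, and the median offset without a region was 67 bp. With a top-score partner the median number with a region was 217.5 and the offsets were 54 and 29 bp, and with the reciprocal or midpoint rule the offset without a region was 54 bp. Within 2 kb, 99 of the 389 peaks with a region (25.4%) and 58 of the 294 without (19.7%) had another top-score peak nearby. A member lay within 2 kb of 16 peaks with a region (4.11%) and another member within 2 kb of 31 without (10.5%). No chromosome or centre test passed under any of these alternatives (lowest exact p 0.325 adjusted and 0.248), and odds ratios near 1 changed side. For II they were 0.918 (q), 0.843 (top-score partner) and 0.895 to 1.07 (no overlap with the other replicate required). For III they were 0.949 (under 1500 bp), 0.907 (top-score partner), 0.834 (from replicate 2) and 0.680 to 0.923, for IV 0.780 to 1.09, for V 0.908 (from replicate 2) and 0.996 to 1.12, and for X 0.883 (q) and 1.30 to 1.31. For the middle part they were 1.15 (q), 1.03 (from replicate 2), 1.02 (central 50%) and 1.02 to 1.28. The cause was not tested. No paired analysis was possible because the lists used hold only ChIP peaks. Depth is unknown, so a missing region cannot be told from too few reads.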

Other observations

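Below the tied highest score, peak numbers and scores ran in opposite order, with a Spearman's rho across peaks of -0.99984 in replicate 1 (22705 peaks) and -0.99997 in replicate 2 (20315 peaks). The order was not exact, because from one number to the next the score rose at 59.8% of the steps in replicate 1 and at 63.3% in replicate 2. Of the 319 top-score replicate 1 peaks on the 5 chromosomes that met no replicate 2 peak, 31 (9.72%, exact 95% interval 6.70 to 13.5) overlapped a combined region.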
